A study of Mus musculus with 5 samples.

Results

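The genes described here mark the blood vessels of the embryonic mouse cortex. They are 7 genes of endothelial cells (Cldn5, Pecam1, Cdh5, Kdr, Tek, Flt1 and Slco1c1) and 3 genes of mural cells, the pericytes that wrap capillaries (Rgs5, Pdgfrb and Kcnj8). They were taken by name from a table of FPKM values (sequenced fragments per kilobase of a transcript, relative to library size), and all 10 were found among its 23997 genes. The libraries came from whole cortices of C57BL/6 embryos at embryonic day 16 (E16). The 3 controls were Emx1 Cre/+ with 1 intact Uhrf1 allele (Uhrf1 +/-), and the 2 conditional knockouts (cKO) were Emx1 Cre/+ Uhrf1 -/-, so that both groups carried the Cre and had lost at least 1 allele in the Emx1 lineage. Uhrf1 encodes a protein that maintains DNA methylation after replication, and Emx1-driven Cre removes its floxed exon in the progenitors of the dorsal telencephalon and their progeny.

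Endothelial cells and most mural cells are not made by the cortical neuroepithelium: vessels grow into the cortex from a plexus on its surface. Neural progenitors secrete VEGF-A, which acts on the endothelial receptor KDR, while FLT1 binds the same ligand and acts largely as a trap. Wnt7a and Wnt7b from neural cells induce barrier properties in the endothelium, including the tight junction protein claudin-5, and endothelial PDGF-B draws in pericytes through PDGFRB. These statements are background and were not measured here.

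None of the 10 vascular genes changed between control and cKO cortex at the thresholds used, an unadjusted p under 0.05 with over 2-fold, in a limma fit of 14695 genes. Over all genes tested 4.03% passed, 2.86% as higher and 1.16% as lower in cKO libraries. At an adjusted p under 0.05 (Benjamini-Hochberg) again 0 of 10 passed, beside 1.26% of all genes, and at an unadjusted p under 0.05 alone 1 of 10 (Kdr), beside 11.6%. The adjusted p of the 10 genes lay between 0.417 and 0.941. Fold changes (cKO over control) ran from 0.836 for Slco1c1 to 1.52 for Kdr, and the 95% intervals of 7 of the 10 genes lay inside 2-fold in both directions. The intervals of Kdr, Cdh5 and Flt1 reached past 2-fold higher, and none reached 2-fold lower.

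The targeted gene was checked first. Uhrf1 stood at 7.24, 13.2 and 13.0 FPKM in control replicates 1, 2 and 3 and at 2.75 and 2.61 FPKM in the cKO replicates, a log2 difference of -1.97 with a standard error of 0.28 (adjusted p = 0.00753, limma). The groups did not overlap, and control replicate 1 was the lowest control. Small RNAs took 54.8% to 88.5% of summed FPKM per library, with the highest share in control replicate 1, and were left out of the test. Pearson correlations of log2 values between libraries over the genes tested were 0.958 to 0.984, and the first principal component (46.8% of variance) separated the groups. The second (22.3%) set control replicate 3 and cKO replicate 1 against control replicate 2 and cKO replicate 2.

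Whole cortex was sequenced, so fewer cells of a type and less RNA per cell cannot be told apart in any value below. The labels do not say whether the libraries of a group came from separate litters, and p-values measure the spread between these libraries.

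UHRF1 acts on CG dinucleotides, so the promoters of the vascular genes are shown with every CG in capitals. The windows are the 250 bases before the RefSeq start site, on the gene's strand and 5′ to 3′ (GRCm38.p6), and 7 of the 10 genes had an entry. Methylation was not measured in these libraries. The 4 printed cover the tight junction gene Cldn5 (chr16:18776597-18776846, plus strand), the angiopoietin receptor gene Tek (chr4:94739039-94739288, plus strand), the transporter gene Slco1c1 (chr6:141524104-141524353, plus strand) and the pericyte gene Rgs5 (chr1:169655251-169655500, plus strand).
Cldn5: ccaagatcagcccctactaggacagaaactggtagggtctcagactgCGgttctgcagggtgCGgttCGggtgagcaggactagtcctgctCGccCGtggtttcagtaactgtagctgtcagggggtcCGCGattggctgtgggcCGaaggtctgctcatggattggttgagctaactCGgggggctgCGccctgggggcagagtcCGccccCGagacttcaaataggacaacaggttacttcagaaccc
Tek: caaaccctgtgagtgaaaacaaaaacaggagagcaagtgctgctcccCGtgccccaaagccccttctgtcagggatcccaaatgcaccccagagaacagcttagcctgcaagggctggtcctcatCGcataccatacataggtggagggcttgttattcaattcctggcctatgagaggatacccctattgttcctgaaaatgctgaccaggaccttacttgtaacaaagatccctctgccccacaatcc
Slco1c1: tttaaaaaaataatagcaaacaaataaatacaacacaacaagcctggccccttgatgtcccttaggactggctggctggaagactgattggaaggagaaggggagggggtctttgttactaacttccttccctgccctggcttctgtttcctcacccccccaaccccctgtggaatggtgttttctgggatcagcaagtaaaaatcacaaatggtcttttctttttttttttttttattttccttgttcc
Rgs5: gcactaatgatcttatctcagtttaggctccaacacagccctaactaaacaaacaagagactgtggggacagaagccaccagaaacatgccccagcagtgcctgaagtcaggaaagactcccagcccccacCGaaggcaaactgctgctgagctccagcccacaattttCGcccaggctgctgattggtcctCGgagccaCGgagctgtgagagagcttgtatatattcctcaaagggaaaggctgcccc

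The 4 windows held 12, 2, 0 and 4 CG. Flt1 held 23, Kdr 16 and Kcnj8 6, and over all 32851 promoters of the table the median was 6, with quartiles of 2 and 16. A window with no CG, as in Slco1c1, was found in 7.87% of promoters. The letters GGAA (searched on both strands, as GGAA or TTCC), the core bound by ETS factors that include many endothelial regulators, were in 93.4% of all windows. They occurred 8 times before Slco1c1, 4 times before Kdr, 4 times before Flt1, 3 times before Rgs5 and 2 times before Tek, and were not found before Cldn5 or Kcnj8. A match of letters is a description of the window and not a binding site.

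The levels of the 10 genes spanned a wide range, and FPKM, being per length, allows them to be ordered. Cldn5 had the highest level in control cortex (64.0 ± 16.2 FPKM, mean ± SD, n = 3) and Flt1 the lowest (1.17 ± 0.21). Between them stood Rgs5 (34.9 ± 2.4), Slco1c1 (17.1 ± 4.9), Pecam1 (8.57 ± 1.18), Kdr (5.85 ± 1.41), Kcnj8 (4.75 ± 0.40), Tek (3.14 ± 0.59), Pdgfrb (2.50 ± 0.51) and Cdh5 (1.88 ± 0.54). Of the 9 neighbouring pairs in this order, 5 had control libraries that lay fully apart and 4 overlapped: Pecam1 with Kdr, Kdr with Kcnj8, Tek with Pdgfrb, and Pdgfrb with Cdh5. The highest mean over all 5 libraries was 46.9 times the lowest.

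**Figure D1:**
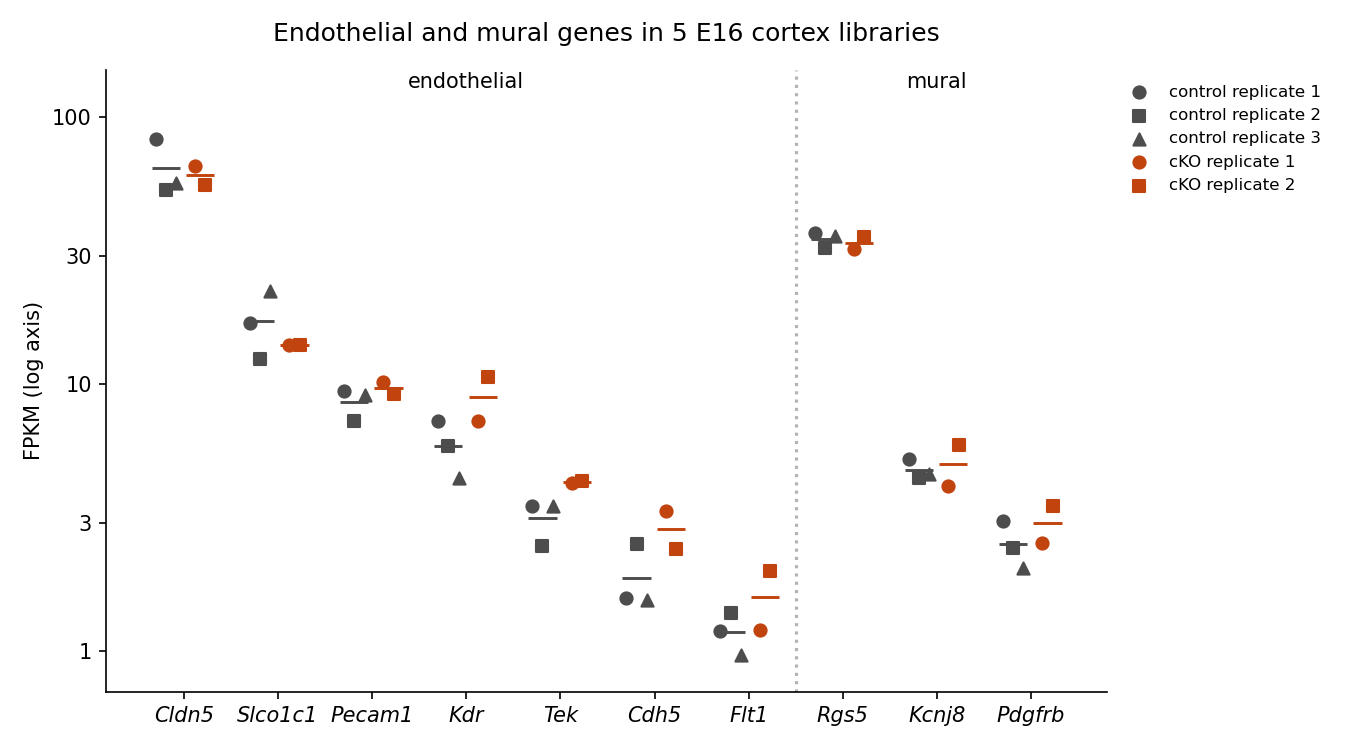
FPKM of the 7 endothelial and 3 mural genes (horizontal axis) in each of the 5 libraries on a log axis; grey points are control and orange points cKO libraries, the marker shape gives the replicate number, and short lines are group means. The orange and grey points overlap in range for every gene except Tek, whose 2 cKO values (4.26 and 4.30 FPKM) are above all 3 controls.

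Cldn5 forms the tight junctions that seal brain capillaries and lies on chromosome 16 (18776847 to 18778262, plus strand, GRCm38) as a single exon. It measured 82.6, 53.0 and 56.4 FPKM in the controls and 65.5 and 55.7 FPKM in the cKO. Control replicate 1 was the highest of the 5 libraries, and both cKO values lay within the control range. The difference on the log2 scale was -0.05 ± 0.21 (estimate ± SE; below, log2 differences carry the SE and FPKM means the SD over 3 control and 2 cKO libraries), with a 95% interval from -0.53 to 0.42 (adjusted p = 0.935). Its sign, like that of Rgs5 and Kcnj8, turned with the scaling.

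Slco1c1, a thyroid hormone transporter of the blood-brain barrier on chromosome 6 (141524368 to 141570177, plus strand), measured 16.8, 12.4 and 22.2 FPKM in the controls. Its cKO values were 13.9 FPKM in both libraries. They lay inside the control range, which was itself wide. The log2 difference was -0.26 ± 0.23 (95% interval -0.79 to 0.27, adjusted p = 0.686). The interval therefore includes a fall to 0.580 of control as well as a rise to 1.20 times control.

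The adhesion genes Pecam1 and Cdh5 had higher means in the cKO, without passing the test. Pecam1 encodes the junctional protein CD31 (chromosome 11, 106654217 to 106750628, minus strand) and measured 9.41, 7.22 and 9.07 FPKM in the controls and 10.1 and 9.15 FPKM in the cKO. The lower cKO library stood below control replicate 1, so the groups overlapped (log2 fold change 0.18 ± 0.19, 95% interval -0.26 to 0.61, adjusted p = 0.744). Cdh5 encodes VE-cadherin, the adherens junction protein of endothelium (chromosome 8, 104101625 to 104144511, plus strand). It measured 1.58, 2.50 and 1.55 FPKM in the controls and 3.32 and 2.41 FPKM in the cKO. Control replicate 2 exceeded the second cKO library. The log2 fold change of 0.60 ± 0.30 had an interval from -0.07 to 1.28 (adjusted p = 0.476), which includes both no difference and more than a 2-fold rise.

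The 3 receptor tyrosine kinase genes also had higher means in the cKO. Kdr, which encodes the main signalling receptor for VEGF-A (chromosome 5, 75932827 to 75978458, minus strand), measured 7.26, 5.85 and 4.44 FPKM in the controls and 7.25 and 10.6 FPKM in the cKO. The first cKO library sat level with control replicate 1, and the second was the highest of all. The log2 fold change was 0.61 ± 0.26 (95% interval 0.02 to 1.19, unadjusted p = 0.0434, adjusted p = 0.417, limma), short of 2-fold. The unadjusted p of Kdr was above 0.05 without control replicate 2 (0.0742), control replicate 3 (0.114) or cKO replicate 2 (0.363), and also with no filter on low values (0.058), no variance trend (0.0731) or quantile normalization (0.0597). In 5 of these 6 settings no gene of the 10 had an unadjusted p under 0.05; without control replicate 2 Cdh5 did.

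Flt1, the VEGF-A trap receptor gene on the same chromosome (147561604 to 147726011, minus strand), measured 1.18, 1.38 and 0.960 FPKM in the controls and 1.19 and 1.98 FPKM in the cKO. The first cKO library lay among the controls and the second above them. This gave a log2 fold change of 0.37 ± 0.32 (95% interval -0.36 to 1.11, adjusted p = 0.673), the widest interval of the 10.

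Tek encodes TIE2, the receptor for angiopoietins (chromosome 4, 94739289 to 94874976, plus strand). It measured 3.48, 2.46 and 3.47 FPKM in the controls and 4.26 and 4.30 FPKM in the cKO, and was the 1 gene of the 10 whose groups did not overlap. Over all genes tested 30.8% had groups that did not overlap, 14.5% with the cKO higher and 16.3% with it lower. The count among the 10 was 2 with median-of-ratios scaling, both with the cKO higher (15.9% of all genes), and 4 with rescaling to the sum without small RNAs, all with the cKO higher (22.7% of all genes). It ran from 1 to 5 with a library left out, where 40.2% to 58.2% of all genes did not overlap. Its log2 fold change was 0.45 ± 0.24 (95% interval -0.09 to 0.995, adjusted p = 0.503). An exact two-sided permutation test gave p = 0.1 for Tek, which is the smallest that 10 splits of 5 libraries allow. The other 9 genes had exact permutation p between 0.3 and 0.9.

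The mural genes had log2 differences between -0.05 and 0.26. Rgs5, a regulator of G protein signalling and among the most abundant pericyte transcripts (chromosome 1, 169655501 to 169695813, plus strand), measured 36.8, 32.2 and 35.8 FPKM in the controls and 31.8 and 35.5 FPKM in the cKO. The 5 values lay close together, with the first cKO library slightly under the lowest control. The log2 fold change was -0.05 ± 0.15 with the narrowest interval of the 10, -0.40 to 0.29, which corresponds to 0.760 to 1.22 times control (adjusted p = 0.910).

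Pdgfrb encodes the receptor through which pericytes are recruited to vessels (chromosome 18, 61045150 to 61085061, plus strand). It measured 3.05, 2.42 and 2.04 FPKM in the controls and 2.53 and 3.49 FPKM in the cKO. The groups overlapped, with the second cKO library the highest (log2 fold change 0.26 ± 0.27, 95% interval -0.35 to 0.87, adjusted p = 0.733). Kcnj8 encodes Kir6.1, the pore of the pericyte ATP-sensitive potassium channel (chromosome 6, 142564837 to 142571614, minus strand). It measured 5.20, 4.44 and 4.60 FPKM in the controls and 4.12 and 5.88 FPKM in the cKO. The 2 cKO libraries were the lowest and the highest of the 5, so the small mean difference (0.05 ± 0.23, 95% interval -0.46 to 0.57, adjusted p = 0.941) sits on a wide spread. In the annotation (GENCODE M21), no exon of the 10 genes overlapped an exon of another gene on either strand.

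**Figure D2:**
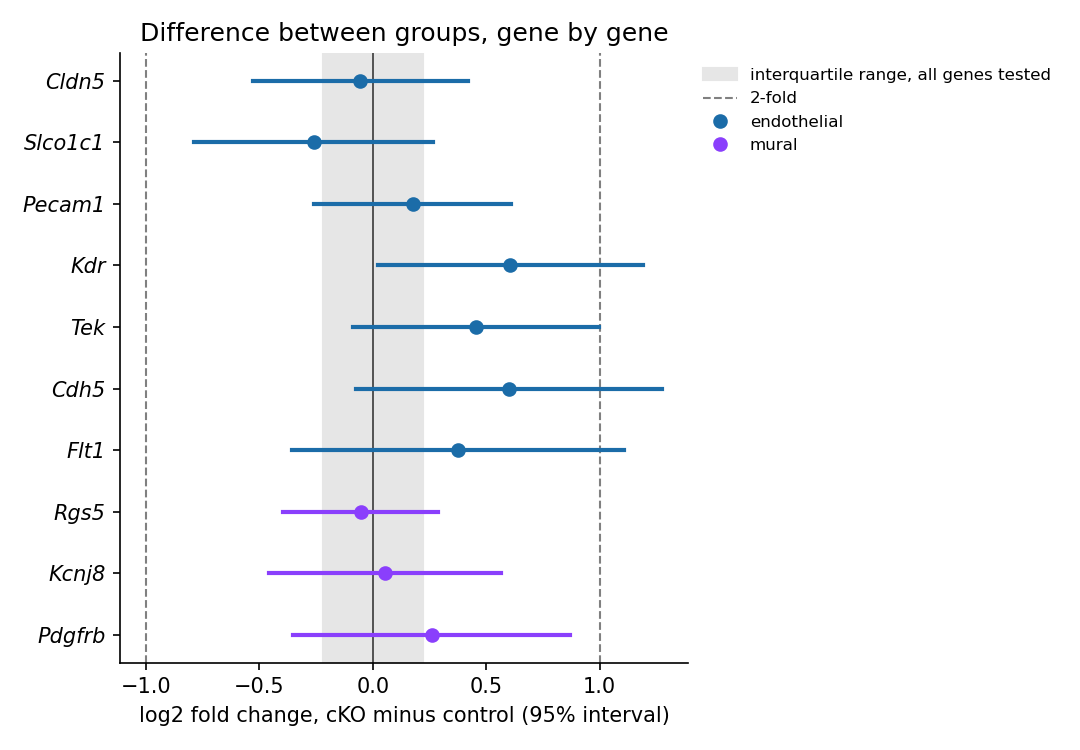
Log2 fold change (cKO minus control, horizontal axis) of each gene with its 95% interval from limma; blue marks endothelial and purple mural genes, the grey band is the interquartile range of all genes tested (-0.22 to 0.22), and dashed lines mark 2-fold. No point reaches a dashed line, and the interval of Kdr is the single one that leaves out 0.

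The endothelial genes were then set against the mural genes. The median log2 fold change was 0.37 over the 7 endothelial genes and 0.05 over the 3 mural genes, beside -0.02 over all genes tested. Of the endothelial genes 5 had a higher and 2 a lower mean in the cKO, or 6 and 1 with quantile normalization or rescaling, where Cldn5 turned. The mean log2(FPKM + 0.1) of the 7 endothelial genes was 2.79, 2.59 and 2.62 in the control libraries, against 2.91 and 2.97 in the cKO. Both cKO libraries thus stood above the controls, by 0.27 on the mean. With other pseudocounts or scalings the groups stayed apart, at a difference of 0.20 to 0.41. The low value came with a pseudocount of 1 FPKM and the high one with rescaling to the sum without small RNAs. The other settings could not have shown an overlap. The filter and the variance trend leave this score unchanged, and leaving out a library cannot make separate groups overlap. The endothelial mean is a description of a score over chosen genes and carries no test.

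On the mean of the 3 mural genes the controls had 3.09, 2.84 and 2.83, and the cKO had 2.82 and 3.19. The cKO libraries spanned the whole control range. The endothelial mean minus the mural mean was -0.30, -0.26 and -0.21 in the control libraries, against 0.08 and -0.22 in the cKO. The first cKO library stood above all controls and the second lay among them, so the difference of 0.18 between the groups rested on cKO replicate 1 and was 0.03 without it.

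Summed FPKM, in which Cldn5 has the largest share, showed no separation. The 7 endothelial genes summed to 122.3, 84.7 and 98.1 FPKM in the controls and to 105.5 and 98.1 FPKM in the cKO. Without Cldn5 the sums were 39.73, 31.79 and 41.68 FPKM in the controls and 40.05 and 42.4 FPKM in the cKO, and the groups also overlapped. The 3 mural genes summed to 45.0, 39.1 and 42.4 FPKM in the controls and to 38.5 and 44.8 FPKM in the cKO.

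**Figure D3:**
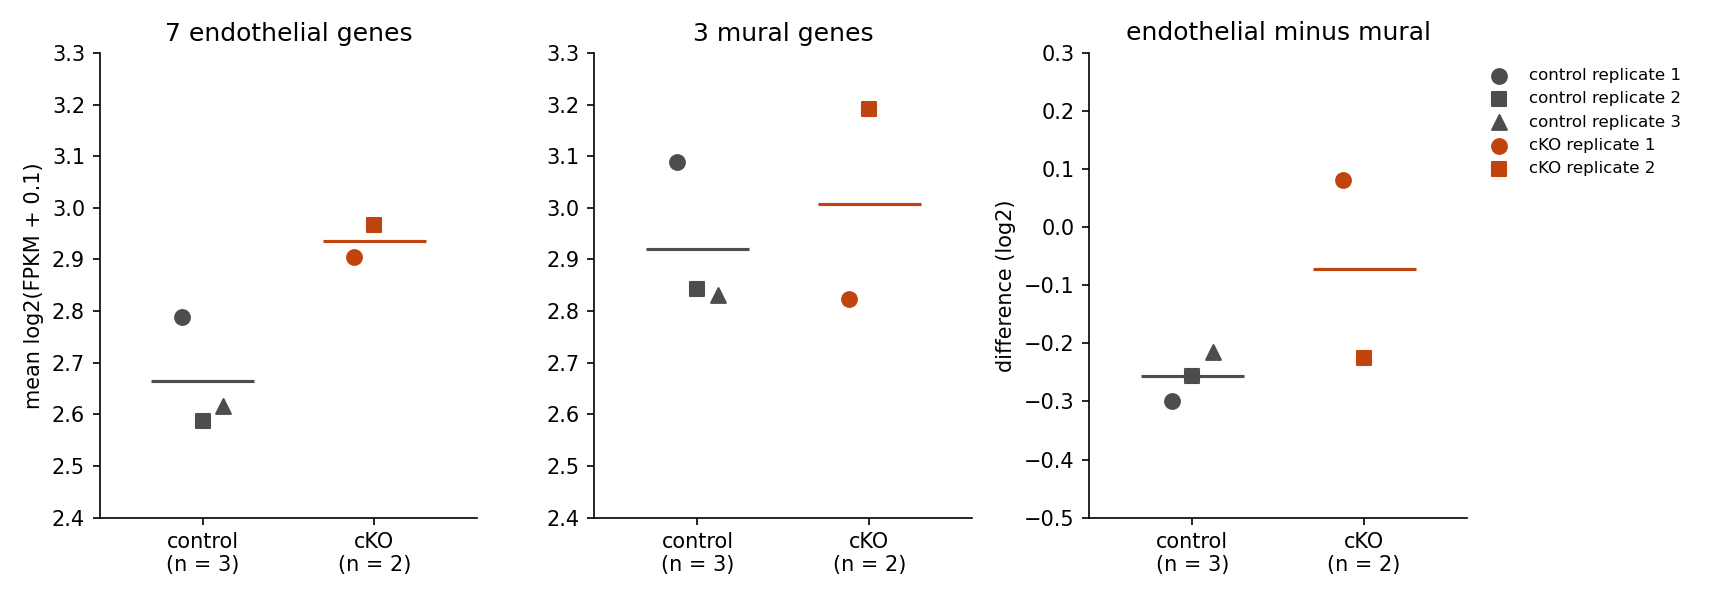
Mean log2(FPKM + 0.1) of the 7 endothelial genes (left), of the 3 mural genes (middle) and their difference (right, log2) in each library; grey is control (n = 3), orange is cKO (n = 2), marker shape gives the replicate, and lines are group means. Endothelial means are 2.59 to 2.79 in control and 2.91 to 2.97 in cKO, while the mural means and the differences overlap.

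Other genes of vessels and of the signals that reach them were read from 8 lists, which held 114 tested genes beside the 10. They include genes that neural cells express, such as Wnt7b, Ctnnb1 and Vegfa, and are not all genes of the vessel wall. Of these 3 rose and 2 fell at the thresholds (4.39% together, beside 4.03% of all genes tested; 5 and 1 with rescaling to the sum without small RNAs), and 0 passed an adjusted p under 0.05 in limma, with 11 at an unadjusted p under 0.05 (9.65%, beside 11.6%). The median log2 fold change of the 114 was 0.17. The groups did not overlap with the cKO higher in 24 (21.1%, beside 14.5%) and with the cKO lower in 8 (7.02%, beside 16.3%). That split moved to 14 and 11 with quantile normalization (13.5% and 15.9% of all genes) and to 38 and 6 with rescaling (22.7% and 7.37% of all genes), which shifts the median of all genes from -0.02 to 0.12. The 5 genes that passed were low, with a mean of at most 1.67 FPKM. Beside the counts of the single lists below, 2.86% of all genes tested were called higher and 1.16% lower, and 11.6% had an unadjusted p under 0.05.

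Of the 25 other pan-endothelial genes 0 passed, also at an unadjusted p under 0.05 (median log2 fold change 0.12). The 2 most abundant were Ramp2, a co-receptor for adrenomedullin (14.4 ± 2.3 FPKM in control and 13.5 ± 0.1 in cKO), and the sialomucin gene Cd34 (13.1 ± 0.7 and 11.8 ± 0.1). Both averaged a little less in the cKO than in control, and neither differed by more than its error (adjusted p = 0.886 and 0.743, limma). The groups overlapped for Ramp2 and did not overlap for Cd34. Of all 25 genes 17 had a higher and 8 a lower mean in the cKO. The groups did not overlap in 5 with the cKO higher and in 2 with it lower, beside 14.5% and 16.3% of all genes.

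Among the barrier transporters and junction genes 0 of 19 passed at the thresholds (median 0.28), and 1 had an unadjusted p under 0.05. That gene was Slc7a5, the large neutral amino acid transporter, with 13.3, 12.7 and 9.15 FPKM in the controls and 20.8 and 22.1 FPKM in the cKO. The groups lay well apart, at a log2 fold change of 0.88 ± 0.20 (adjusted p = 0.0865, limma), the lowest adjusted p of the 114 genes. It was picked out after its values were seen. The glucose transporter gene Slc2a1 had 23.7 ± 2.1 and 29.9 ± 1.2 FPKM (adjusted p = 0.448), and the transferrin receptor gene Tfrc 29.6 ± 6.2 and 28.3 ± 4.4 FPKM (adjusted p = 0.935). These transporters are also made by neural cells. Slco1a4, another barrier transporter, was listed at 0 in all 5 libraries.

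Of the 15 Wnt pathway genes 1 rose and 0 fell (median 0.20). At an unadjusted p under 0.05 alone 3 were higher and 1 lower, beside 11.6% of all genes in either direction. Notum, a secreted Wnt inhibitor, was at 0.093, 0.037 and 0 FPKM in the controls and 0.190 and 0.284 FPKM in the cKO, all near the bottom of the scale (log2 fold change 1.27 ± 0.53, adjusted p = 0.403, limma). It lost its call without cKO replicate 2, control replicate 2 or control replicate 3 (log2 fold changes of 1.07, 1.26 and 1.03). The ligand gene Wnt7b measured 68.8, 71.5 and 71.7 FPKM in the controls and 84.1 and 89.4 FPKM in the cKO, without overlap but short of the test (0.29 ± 0.15, adjusted p = 0.472). Ctnnb1, which encodes β-catenin, was lower in the cKO, also without overlap and short of the test. It measured 554 ± 20 FPKM in control and 433 ± 8 FPKM in cKO (-0.35 ± 0.19, adjusted p = 0.502, limma). The other 3 genes at an unadjusted p under 0.05 were picked out after their values were seen. Apcdd1, a Wnt-induced inhibitor of the pathway, had 17.2 ± 2.8 and 28.5 ± 2.8 FPKM (0.74 ± 0.18, adjusted p = 0.129), and Tnfrsf19, another Wnt target, 19.0 ± 0.3 and 24.3 ± 0.2 FPKM (0.35 ± 0.15, adjusted p = 0.408). Tspan12, a co-activator of the receptor FZD4, went the other way, with 17.0, 17.4 and 24.7 FPKM in the controls and 13.2 and 13.3 FPKM in the cKO (-0.54 ± 0.20, adjusted p = 0.344). Lef1, Axin2 and Nkd1 on the same list, also named after their values were seen, had overlapping groups. Their log2 fold changes were -0.61 ± 0.41, 0.19 ± 0.25 and 0.17 ± 0.31. Of the 15 genes 11 had a higher and 4 a lower mean in the cKO.

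Of the 14 VEGF and angiopoietin genes, which include Kdr, Flt1 and Tek, 1 rose and 1 fell (median 0.30). An unadjusted p under 0.05 was found in 3, Kdr among them, beside 11.6% of all genes. Figf, the gene of the lymphatic growth factor VEGF-D, was at 0.152, 0.379 and 0.108 FPKM in the controls and 1.41 and 0.678 FPKM in the cKO. Both cKO libraries were higher (1.89 ± 0.50, adjusted p = 0.164, limma), and the call was lost without cKO replicate 1 (log2 fold change 1.41). Pgf, the placental growth factor gene whose product binds FLT1, measured 2.33, 1.19 and 2.90 FPKM in the controls and 1.14 and 0.801 FPKM in the cKO (-1.001 ± 0.387, adjusted p = 0.376). It stood at the 2-fold line, and it lost its call without control replicate 1, control replicate 3 or either cKO replicate, where log2 fold changes were -0.90, -0.75, -1.23 and -0.77.

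The partners of the receptors described above were named after their values were seen. Vegfa, the ligand gene for KDR and FLT1, measured 17.9, 17.0 and 16.1 FPKM in the controls and 19.2 and 20.7 FPKM in the cKO (0.23 ± 0.16, adjusted p = 0.593). The 2 cKO libraries were above the controls by a small step that did not pass the test. The TEK ligand genes Angpt1 and Angpt2 had log2 fold changes of 0.42 ± 0.33 and -0.40 ± 0.55 with overlapping groups. Pdgfb, the ligand gene for PDGFRB, measured 3.74 ± 0.20 FPKM in control and 3.93 ± 0.66 FPKM in cKO. Abcc9, which encodes the SUR2 subunit that pairs with Kir6.1, lies 16247 bp from Kcnj8 on the same strand, and measured 3.39 ± 0.94 and 4.52 ± 0.76 FPKM (0.43 ± 0.28, adjusted p = 0.574).

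Of the 13 tip cell and Notch genes 0 passed at the thresholds and 1 had an unadjusted p under 0.05 (median 0.14). It was Notch4, named after its values were seen. Notch4 measured 0.81, 0.67 and 0.84 FPKM in the controls and 1.375 and 1.382 FPKM in the cKO (0.77 ± 0.30, adjusted p = 0.381, limma). Cxcr4, a chemokine receptor of tip cells and of migrating neurons, measured 52.5 ± 6.5 FPKM in control and 53.6 ± 11.3 FPKM in cKO. Hey1, a Notch target of arteries, measured 13.2 ± 2.0 and 11.9 ± 2.2 FPKM. Of the 17 other pericyte genes 0 passed and 1 had an unadjusted p under 0.05 (median 0.28). That gene was Rgs4, a relative of Rgs5 that cortical neurons also express, at 35.5, 35.5 and 32.2 FPKM in the controls and 25.4 and 18.6 FPKM in the cKO (-0.66 ± 0.18, adjusted p = 0.171, limma). Vtn, the vitronectin gene, measured 10.1 ± 2.0 and 12.2 ± 2.6 FPKM.

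Of the 6 smooth muscle genes tested 1 rose and 1 fell (median -0.05), and 4 of the 10 on the list were under the filter of a mean of 0.1 FPKM. Tagln, a contractile gene, was at 0.037, 0.042 and 0.064 FPKM in the controls and 0.265 and 0.655 FPKM in the cKO (1.83 ± 0.50, adjusted p = 0.191, limma). Its control values lay under the 0.1 FPKM added before taking logs. Tagln kept its call with each control library left out, and its log2 fold change was 2.36 without cKO replicate 1 and 1.31 without cKO replicate 2. With a pseudocount of 1 FPKM it lost the call (0.47). Sncg, which some neurons also express, was at 0.713, 0.458 and 0.271 FPKM in the controls, listed at 0 in the first cKO library and at 0.279 FPKM in the second (adjusted p = 0.401, limma). It lost its call without cKO replicate 1 (-0.54), control replicate 1 (-1.22) or control replicate 2 (-1.50). Of the 10 basement membrane genes 0 passed, also at an unadjusted p under 0.05 (median 0.14). All 10 had a higher mean in the cKO, by 0.03 to 0.83 on the log2 scale, but 9 did with quantile normalization and 4 without cKO replicate 2. Col4a1, a chain of the vessel collagen, measured 14.5 ± 4.6 and 15.5 ± 3.8 FPKM, and Sparc 28.1 ± 3.0 and 29.2 ± 3.1 FPKM.

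**Figure D4:**
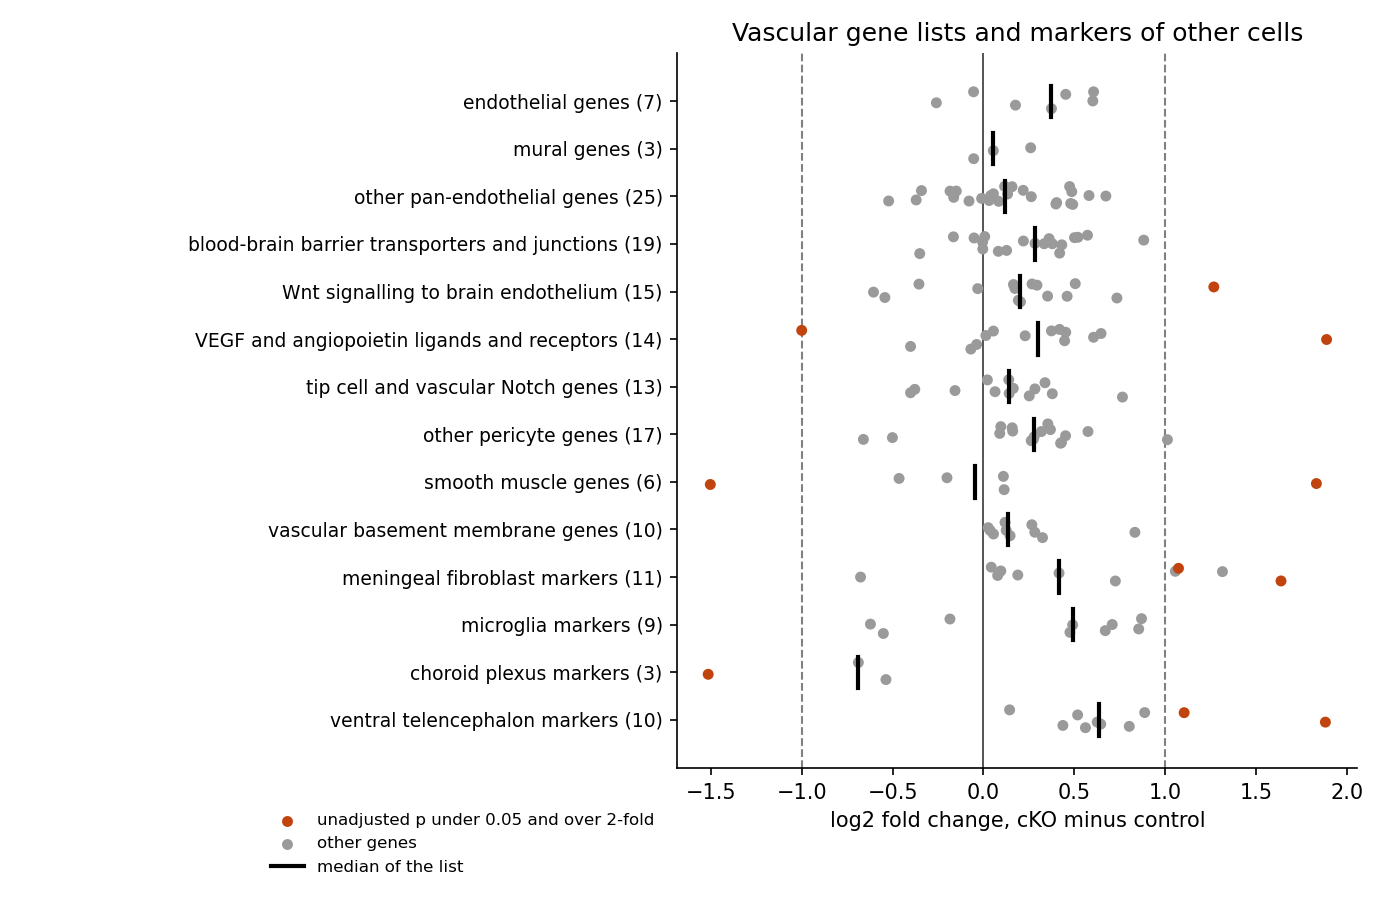
Log2 fold change (cKO minus control, horizontal axis) of each tested gene in the vascular lists and in lists of other cells; the number tested is in brackets, black bars are list medians, orange points passed an unadjusted p under 0.05 with over 2-fold, and dashed lines mark 2-fold. The endothelial and mural genes have medians of 0.37 and 0.05 and no orange point. The erythroid, cortical cell and hypoxia-responsive lists are not drawn, and their medians were -0.38, -0.10 and 0.10.

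Markers of other cells that whole cortex can hold were summed in the same libraries, and their part in the vascular values was not tested. Beside the counts in these lists, 2.86% of all genes tested were called higher and 1.16% lower. An unadjusted p under 0.05 was found in 11.6% of all genes. The groups did not overlap in 14.5% with the cKO higher and in 16.3% with it lower. Markers of ventral telencephalon summed to 57.6 to 62.5 FPKM in control and 76.6 to 94.6 FPKM in cKO, with 2 of 10 called higher (Isl1 and Gsx2), 0 lower, and a median of 0.64. All 10 had a higher mean in the cKO, 6 with an unadjusted p under 0.05 and 7 with groups that did not overlap. Markers of meningeal fibroblasts, which lie beside the surface vessels, summed to 17.8 to 18.6 FPKM in control and 23.3 to 27.7 FPKM in cKO. Of these 2 of 11 were called higher and 0 lower (median 0.42): Col1a1, with 0.816, 0.203 and 0.374 against 0.663 and 3.19 FPKM, and Lum, with 0.309, 0.418 and 0.290 against 1.28 and 0.509 FPKM. Of these 4 called genes, Col1a1 and Isl1 lost the call without cKO replicate 2 (0.58 and 0.51), Lum without cKO replicate 1 (0.48) and Gsx2 without control replicate 2 (0.78), among other libraries. Markers of microglia summed to 29.1 to 54.0 FPKM in control and 53.2 to 55.7 FPKM in cKO. Of the 9 tested 0 were called, and 4 had an unadjusted p under 0.05, all higher (median 0.49). In 6 the cKO mean was higher and in 3 it was lower. The groups did not overlap in 4 with the cKO higher and in 1 with it lower. The most abundant, the complement genes C1qc and C1qb, had 9.99 ± 4.57 and 13.1 ± 1.5 FPKM, and 7.49 ± 3.64 and 11.2 ± 0.014 FPKM.

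Erythroid genes, which report blood left in the vessels, summed to 1279 to 1599 FPKM in control and 952 to 1092 FPKM in cKO. Of the 9 tested 1 was called higher (Hba-a1) and 1 lower (Hba-a2), which are near-identical copies whose separate values are uncertain. An unadjusted p under 0.05 was found in 3 (1 higher and 2 lower), and the median was -0.38. The groups did not overlap in 1 with the cKO higher and in 4 with it lower. Hbb-bs, named after its values were seen, had 492 ± 87 and 292 ± 27 FPKM (-0.74 ± 0.21, adjusted p = 0.206, limma). Choroid plexus markers summed to at most 1.25 FPKM in any library; 3 of 6 were tested, and Ttr was called lower (0.484, 0.800 and 0.382 FPKM against 0 and 0.389 FPKM; -0.37 without cKO replicate 1), with Aqp1 at 0.189 ± 0.151 and 0.085 ± 0.042 FPKM. Cortical cell markers summed to 2617 to 3026 FPKM in control and 2388 to 2605 FPKM in cKO, with 0 of 9 called and 3 at an unadjusted p under 0.05, all lower. Named after their values were seen, these were Eomes (45.6 ± 8.9 and 25.9 ± 1.2 FPKM), Pax6 (19.7 ± 3.2 and 12.3 ± 2.3 FPKM) and Emx1 (35.3 ± 4.7 and 23.6 ± 2.4 FPKM). Of the 9 genes 2 had a higher and 7 a lower mean in the cKO. The groups did not overlap in 1 with the cKO higher and in 4 with it lower. The most abundant were Tubb3 (1756 ± 265 and 1650 ± 166 FPKM) and Neurod6 (803 ± 182 and 601 ± 16 FPKM). Among 11 hypoxia-responsive genes 0 were called (median 0.10), with Ldha at 108 ± 17 and 97.0 ± 6.8 FPKM and Ddit4 at 32.8 ± 0.7 and 35.9 ± 10.6 FPKM. At an unadjusted p under 0.05 there was 1, Pgk1, lower in the cKO and named after its values were seen. It had 15.55 ± 1.56 and 9.535 ± 1.016 FPKM (-0.70 ± 0.18, adjusted p = 0.139, limma). Groups that did not overlap were found in 2 with the cKO higher and in 2 with it lower.

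Finally, genes were ranked by how closely their profile over the 5 libraries followed the mean profile of each class, among the 12071 genes that averaged 1 FPKM or more. Nearest to the endothelial profile were Ano10, Frmd8, Nudt10 and Ldb2, with root mean square differences of 0.022 to 0.036 on the log2 scale. Nearest to the mural profile were Plekhh1, Eci1, Pabpc4, 1600014C10Rik and Bfar, at 0.028 to 0.041. None of these 9 genes was on the vascular lists. The profiles themselves departed from a flat line by 0.15 in each class, and 244 and 175 genes lay within 0.1 of them, so the likeness is shared by many genes.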

How the data were processed

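The authors deposited 1 table of FPKM values for 5 libraries (3 control, 2 cKO). Per the study's methods, ribosomal RNA was depleted, 100 bp paired-end directional reads were aligned with TopHat2 to mm10, duplicates and multi-mapped reads were removed, and FPKM was computed with Cuffdiff; tool versions: not given in the sources used here. Removal of multi-mapped reads lowers genes with close copies.

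Values were tested as log2(FPKM + 0.1), and fold changes are on that scale, which understates changes of low genes. Genes averaging 0.1 FPKM or more were fitted with limma 3.58.1 (R 4.3.3, variance trend, Benjamini-Hochberg over 14695 genes); names of small RNAs were left out. The thresholds follow the study. The fit was tested on simulated data. Groups came from the sample labels. Named genes were the 10 vascular genes, Uhrf1, from each list those past both thresholds (at most 4; or, if fewer than 2, the 2 most abundant), and the 5 nearest profiles per class (1 gene is not reported here). The members and lists were chosen with earlier results of these data known. No counts are given; steps between low values of 2172 single-transcript genes put depth roughly at 9100000 to 17000000 fragments in 4 libraries and 45000000 in control replicate 1; the steps were less clear in control replicate 1 and cKO replicate 1. At that depth Flt1 rested on roughly 10 to 53 fragments per kilobase. Sequences are from RefSeq (GRCm38.p6) and gene positions from GENCODE M21. Alternatives covered the pseudocount, filter, scaling, variance trend and each library left out.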

Additional observations from a re-analysis of the deposited data

How the results depend on the processing

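With 3 libraries against 2, only large differences can pass. Low genes such as Flt1 rest on fewer fragments per kilobase (roughly 10 to 53) than Cldn5 (roughly 570 to 3700). No setting called any of the 10 genes, and 4 to 9 of their intervals lay within 2-fold. The lowest adjusted p over the 13 alternatives was 0.325. Of 130 alternative values 121 kept their direction and 9 reversed, all in Cldn5, Rgs5 and Kcnj8. The filter and variance-trend settings leave the log2 fold changes of the 10 genes unchanged, so those values could not reverse.

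Rescaling to the sum without small RNAs, which moved the median of all genes from -0.02 to 0.12, gave 0.092 for Cldn5, 0.093 for Rgs5, 0.066 for Ramp2, 0.095 for Tfrc and 0.064 for Tubb3; there Slc7a5 passed both thresholds (1.03), and Kdr, Cdh5 and Tek had an unadjusted p under 0.05. Quantile normalization gave 0.049 for Cldn5, 0.031 for Rgs5, -0.036 for Kcnj8, 0.014 for Tfrc, 0.30 for Tubb3 and -0.025 for Pdgfb. With each library left out in turn the values ran from -0.18 to 0.14 (Cldn5), -0.13 to 0.024 (Rgs5), -0.20 to 0.31 (Kcnj8), -0.14 to 0.38 (Col4a1), -0.19 to 0.24 (Cxcr4), -0.21 to 0.40 (Ddit4), -0.35 to 0.034 (Hey1), -0.10 to 0.23 (Pdgfb), -0.19 to 0.039 (Ramp2), -0.055 to 0.16 (Sparc), -0.21 to 0.11 (Tfrc) and -0.19 to 0.037 (Tubb3); the cause was not tested.

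The endothelial median was 0.24 with a pseudocount of 1 FPKM, 0.18 with quantile normalization, 0.51 with rescaling to the sum without small RNAs and 0.25 to 0.38 with a library left out. The mural median was -0.13 to 0.31, and endothelial minus mural 0.031 to 0.34, with a library left out; the latter was 0.14 with a pseudocount of 1 FPKM. In the other vascular lists 3 genes were called higher and 2 lower. These were 0 and 0 with a pseudocount of 1 FPKM, 0 and 1 at a mean of at least 1 FPKM (fewer genes tested), 5 and 1 with rescaling, and 1 lower with median-of-ratios scaling, and 2 to 4 and 0 to 2 with a library left out. Over all genes 592 were called, 176 with a pseudocount of 1 FPKM and 235 at a mean of at least 1 FPKM. Leaving out a cKO library leaves 1, assumed to vary as the controls do. No paired analysis was possible because the labels give no number that ties a control to a cKO library.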
